A study of Salmo salar with 13 samples.

Results

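Atp2a1 and calmodulin stand at opposite ends of calcium handling in a cell, as a pump and as a sensor. The members described here are 3 transcripts out of 146780 listed for each library, chosen by their identifiers: ENSSSAT00000119943 and ENSSSAT00000120142 of Atp2a1, and ENSSSAT00000002879 of calm2a. The tissue was the saccus vasculosus (SV) of Atlantic salmon, a vascular sac under the hypothalamus of many fish, and poly(A) RNA of 13 libraries was sequenced. Short days of 8 h light were kept for all 16 weeks in SP-hold fish, and for 8 weeks in SPLL fish, which then spent 8 weeks in constant light. Both sets of fish were 11 months old when this began. SVs were taken in freshwater (FW) or after 24 h in seawater (SW) at 34‰, which gave 4 SP-hold FW, 3 SP-hold SW, 2 SPLL FW and 4 SPLL SW libraries. The seawater tank was lit without a dark phase, and for SP-hold fish a change of salt and a change of light therefore cannot be told apart. This change of light is also part of any difference between SP-hold SW and SPLL SW, and of the interaction. The study describes no transfer to a freshwater tank, so in both sets salt and the transfer itself cannot be told apart. The study describes 2 tanks per group, but its authors later left out 3 libraries. The labels do not say which libraries share a tank, or whether each group still spans both, so p-values measure the spread between libraries only.

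SERCA pumps, which the Atp2a genes encode, use ATP to move calcium from the cytosol into the lumen of the endoplasmic or sarcoplasmic reticulum. In mammals Atp2a1 is the form of fast skeletal muscle and Atp2a2 the form found in most tissues. Calmodulin is a small EF-hand protein that binds calcium released into the cytosol and then binds kinases, phosphatases, channels and cytoskeletal proteins. Coronet cells, the characteristic cells of the SV, carry vesicles rich in calcium, and the calcium buffer parvalbumin is a known marker of the organ.

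Both Atp2a1 transcripts belong to gene ENSSSAG00000067160 on chromosome 24 of Ssal_v3.1 (24922974 to 24952489). The gene carries its name only through a mouse match in the tables of the study. RefSeq places an unnamed gene, LOC106585469, at this position, and uses the symbols atp2a1 and atp2a1l for genes on chromosomes 3 and 19. ENSSSAT00000119943 is 3890 bases long and ENSSSAT00000120142 is 9163 bases long. The calm2a transcript ENSSSAT00000002879 is 1034 bases long and comes from gene ENSSSAG00000001376 on chromosome 1 (55129697 to 55133851), which also has the transcript ENSSSAT00000002863 of 855 bases. Exon structures were not used here. Transcripts of 1 gene share sequence, and vertebrate calmodulin genes encode nearly the same protein, so the split of reads between them is an estimate of Salmon.

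Each library had between 15346418 and 26502552 assigned reads. One library, SPLL SW replicate 3, detected fewer transcripts (54196) than the others (62912 to 70193), and members' calls are also given without it. All 3 members were among the 46395 transcripts that passed the filter on low counts. Of the SV markers, the 5 named transcripts of ependymin (epd) and parvalbumin (prvt) together held 6.12 to 11.5% of TPM (reads divided by transcript length and scaled to the same total in each library) in every library, and none of them was at 0.

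The short Atp2a1 transcript was high in 1 group only. ENSSSAT00000119943 stood at 70.0, 47.9, 21.4 and 33.6 TPM in SP-hold FW replicates 1 to 4, and at 202, 74.7 and 170 TPM in SP-hold SW replicates 1 to 3. It stood at 31.6 and 27.4 TPM in SPLL FW, and at 16.7, 40.2, 9.76 and 34.04 TPM in SPLL SW. The SP-hold SW libraries lay above all 10 others, SP-hold SW replicate 2 by a small margin over SP-hold FW replicate 1. Of all tested transcripts, 6.60% had SP-hold SW above SP-hold FW and 7.31% had it above SPLL SW. The share with SP-hold SW above all others was not counted. Group means ran from 25.2 ± 14.3 TPM in SPLL SW (SD, n = 4) through 29.5 ± 2.98 in SPLL FW (n = 2) and 43.2 ± 20.9 in SP-hold FW (n = 4) to 149 ± 66.4 in SP-hold SW (n = 3). The first 3 of these groups overlapped in their libraries, and the highest library held 20.7 times the TPM of the lowest. In a bulk sample, fewer cells that express a gene and less RNA per cell cannot be told apart.

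After SW transfer the short transcript was lower in SPLL than in SP-hold fish. On CPM (reads scaled to library size with TMM factors), SPLL SW had 61.3 ± 22.4 (SD, n = 4) and SP-hold SW 328 ± 79.5 (n = 3), a log2 fold change of -2.42 (SE 0.37, FDR 0.0146 in edgeR), or 5.34-fold lower. The groups did not overlap on TPM, as was the case for 7.31% of tested transcripts in this direction, and 3.05% of tested transcripts were called in this comparison. The study had placed this transcript in a cluster of transcripts it selected on the same libraries, so the test is not independent evidence. It no longer passed when SP-hold SW replicate 1 was left out (-2.30, FDR 0.0636), and in limma the change was -2.59 on log2(TPM + 1) and -2.65 on log2(TPM + 0.1), with FDRs of 0.0508 and 0.0827. Without SPLL SW replicate 3 the change was -2.26 (FDR 0.0265).

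No other contrast passed for the short transcript in edgeR. Within SP-hold fish its change with SW was 1.50 (SE 0.36, FDR 0.205), although the 3 SW libraries lay above the 4 FW libraries, a pattern that 6.60% of tested transcripts shared in this direction. Within SPLL fish the change with SW was -0.65 (SE 0.40, FDR 0.689). The interaction, which is the difference between these responses, was -2.15 (SE 0.54, FDR 0.171). In FW the difference between photoperiods was -0.27 (SE 0.42, FDR 1), and averaged over both waters it was -1.34 (SE 0.29, FDR 0.0680). The SW effect averaged over photoperiods was 0.43 (FDR 0.714). The 4-group test gave an FDR of 0.0437, above its threshold of 0.01, while 0.716% of transcripts had an FDR under 0.05. The study listed 334 transcripts at an FDR under 0.01 over the 4 groups, this one among them. That call was not reproduced here, and the reason was not tested. These edgeR contrasts called 0.0841% of transcripts for SW in SP-hold, 0.269% for SW in SPLL, 0.226% for the interaction, 0.0905% for photoperiod in FW, and 0.222% and 0.582% for the averaged SW and photoperiod effects. The 4-group test called 0.0625%. DESeq2 called the SW effect in SP-hold (1.52, FDR 0.00452) and the interaction (-2.15, FDR 0.00735), in tests that called 2.95% and 4.52% of all transcripts.

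**Figure D1:**
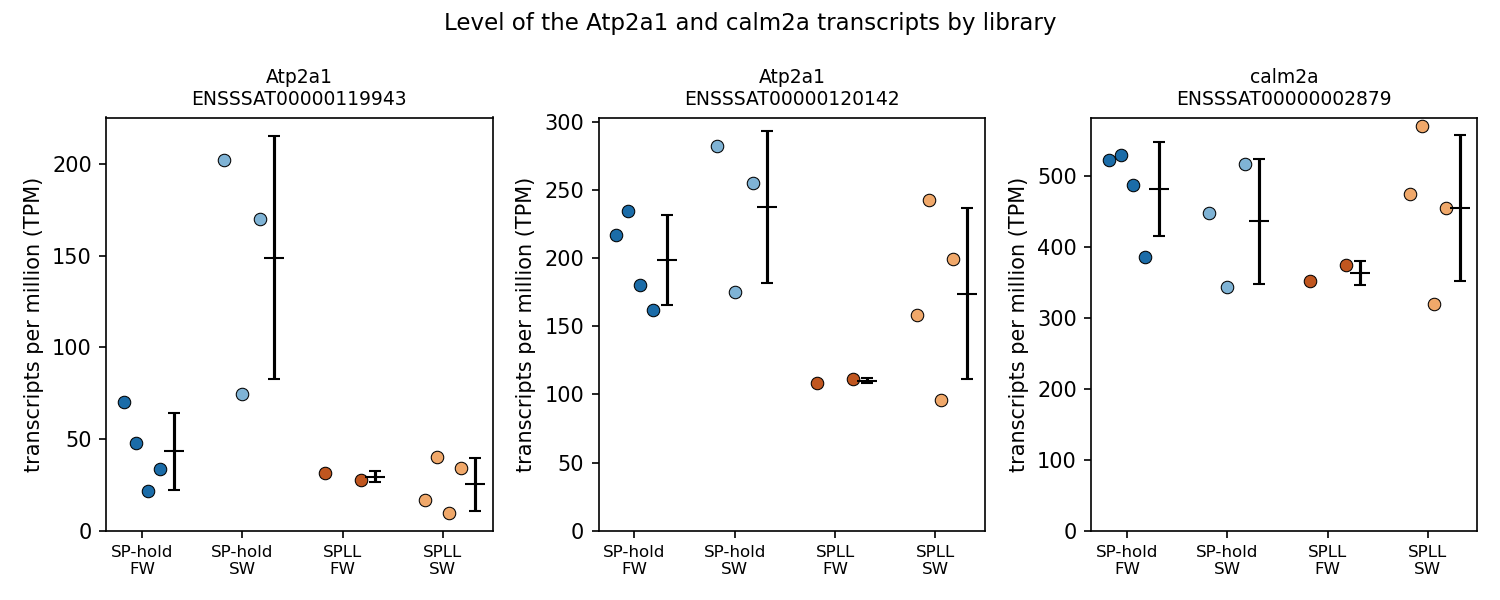
TPM of the 3 member transcripts in each of 13 libraries, 1 panel per transcript and 1 point per library, with the group mean and SD as a bar beside the points. ENSSSAT00000119943 reaches 74.7 TPM or more in the 3 SP-hold SW libraries and 70.0 TPM or less in the others, while for ENSSSAT00000002879 the only pair of groups without overlap is SPLL FW and SP-hold FW.

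The long transcript carried most Atp2a1 reads and varied less. ENSSSAT00000120142 stood at 217, 235, 181 and 162 TPM in SP-hold FW and at 283, 175 and 255 TPM in SP-hold SW. It stood at 109 and 112 TPM in SPLL FW, and at 158, 243, 95.7 and 199 TPM in SPLL SW. Both SPLL FW libraries were lower than every SP-hold library, and SPLL SW replicate 3 was lower still. Group means ran from 110 ± 2.01 TPM in SPLL FW (SD, n = 2) through 174 ± 62.7 in SPLL SW (n = 4) and 199 ± 33.2 in SP-hold FW (n = 4) to 238 ± 55.9 in SP-hold SW (n = 3). The last 3 of these overlapped. Over all libraries its mean was 3.11 times that of the short transcript, and it held rank 462 of all transcripts by mean TPM against rank 1353.

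No contrast of the long transcript passed in edgeR. SP-hold fish had 1298 ± 89.6 CPM in FW (SD, n = 4) and 1224 ± 28.7 in SW (n = 3), and SPLL fish had 842 ± 82.1 in FW (n = 2) and 1089 ± 155 in SW (n = 4). Its difference between photoperiods in FW was -0.63 (SE 0.15, FDR 0.249), with no overlap of the libraries on TPM, as for 16.4% of tested transcripts in this direction. In SW it was -0.17 (SE 0.13, FDR 0.583), and averaged over waters -0.40 (SE 0.10, FDR 0.0891). Its change with SW was -0.08 in SP-hold (SE 0.13, FDR 0.977), a value whose sign turned on TPM (0.24), and 0.37 in SPLL (SE 0.15, FDR 0.396). The 4-group FDR was 0.160. DESeq2 called the photoperiod difference in FW (-0.63, FDR 3.91e-05), where it called 3.25% of transcripts. When the reads of both transcripts were summed, the photoperiod effect in SW of Atp2a1 was -0.43 (FDR 0.112) and the interaction 0.16 (FDR 0.893). The summed photoperiod effect was -0.59 in FW (FDR 0.275) and -0.51 averaged over waters (FDR 0.0617), so neither passed.

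The share of the short transcript in the reads of Atp2a1 also differed between the groups. In SP-hold FW it held 12.1, 7.77, 4.64 and 7.81% of the reads of both transcripts in replicates 1 to 4, and in SP-hold SW 24.1, 15.9 and 23.1%. In SPLL FW it held 11.1 and 9.47%, and in SPLL SW 4.02, 6.33, 4.20 and 6.36%. With SW the share was higher in every SP-hold library than in any FW library of that history. It was lower in every SPLL SW library than in either FW library of that history. How often the shares of other genes separate in this way was not counted. SP-hold FW replicate 3 (4.64%) lay within the range of SPLL SW, and the SP-hold FW range enclosed that of SPLL FW.

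The 4 groups differed in this share. SP-hold fish had a mean share of 8.07 ± 3.05% in FW (SD, n = 4) and 21.0 ± 4.51% in SW (n = 3), against 10.3 ± 1.16% in FW (n = 2) and 5.23 ± 1.29% in SW (n = 4) for SPLL fish. In an exact permutation test over all 900900 assignments of libraries to groups, p was 0.00137 (adjusted over the 7 tests of this share 0.00956), with 86.2% of the variance between groups. Adjusted p ranged from 0.00414 to 0.0298 with each library left out in turn. As the short transcript was selected by the study on these libraries, this is not independent evidence.

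Pairwise, the share did not pass after adjustment, and the design sets a floor on p. It was 12.9 percentage points higher with SW in SP-hold and 15.8 points lower in SPLL SW than in SP-hold SW. Each of these had a 2-sided exact permutation p of 0.0286, the smallest that 4 against 3 libraries allow, and an adjusted p of 0.0667. In SPLL the difference with SW was -5.07 points (exact permutation p = 0.0667, the smallest for 2 against 4 libraries, adjusted 0.0933). In FW the photoperiods differed by 2.22 points (exact permutation p = 0.400). The averaged SW effect was 3.94 points (exact permutation p = 0.238) and the averaged photoperiod effect -6.79 points (exact permutation p = 0.0590, adjusted 0.0933). Whether the SW effect on the share differed between the photoperiods was not tested.

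**Figure D2:**
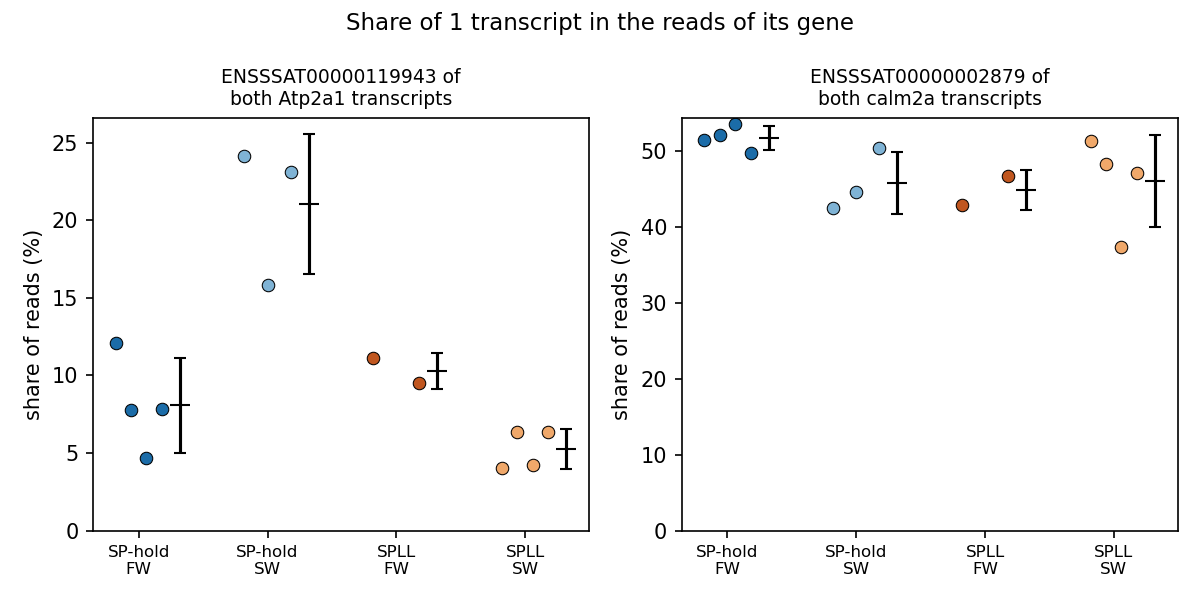
Share (%) of ENSSSAT00000119943 in the reads of both Atp2a1 transcripts (left) and of ENSSSAT00000002879 in the reads of both calm2a transcripts (right), 1 point per library, with group mean and SD. On the left the SP-hold SW libraries lie at 15.9 to 24.1% and the SPLL SW libraries at 4.02 to 6.36%, and on the right the groups span 37.4 to 53.6% in all.

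On TPM, which divides reads by effective length, the short transcript of SP-hold fish made up 17.3 ± 5.65% of Atp2a1 in FW (SD, n = 4) and 37.2 ± 6.38% in SW (n = 3). In SPLL fish it made up 21.1 ± 1.99% in FW (n = 2) and 11.9 ± 2.88% in SW (n = 4), with an exact permutation p of 0.00106 over the 4 groups. The effective length that Salmon gave this transcript after its GC correction also varied, from 3608 to 3700 bases in SP-hold SW against 3355 to 3560 in the other groups. That of the long transcript was 8165 to 8221 bases in SP-hold SW and 8204 to 8490 elsewhere. The part of the GC correction in the shares was not tested.

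calm2a was more abundant than either Atp2a1 transcript per length. ENSSSAT00000002879 stood at 522, 529, 487 and 384.995 TPM in SP-hold FW and at 447, 343 and 517 TPM in SP-hold SW. It stood at 351 and 374 TPM in SPLL FW, and at 474, 569, 320 and 454 TPM in SPLL SW. SPLL FW lay below SP-hold FW, a pattern shared by 16.4% of tested transcripts, and all other pairs of groups overlapped. From low to high, the means were 363 ± 16.5 TPM for SPLL FW (SD, n = 2), 436 ± 87.5 for SP-hold SW (n = 3), 454 ± 103 for SPLL SW (n = 4) and 481 ± 66.5 for SP-hold FW (n = 4). Neighbours in this order overlapped, and the highest library held 1.78 times the lowest. The transcript held rank 230 by mean TPM.

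No contrast of ENSSSAT00000002879 passed in edgeR. SP-hold fish had 316 ± 5.58 CPM in FW (SD, n = 4) and 226 ± 31.6 in SW (n = 3), and SPLL fish had 285 ± 35.6 in FW (n = 2) and 301 ± 35.5 in SW (n = 4). The 3 SP-hold SW libraries, at 190 to 247 CPM, lay below all the others, of which the lowest had 251 CPM, and this held for 2.71% of tested transcripts. Its change with SW in SP-hold was -0.48 (SE 0.12, FDR 0.219), its photoperiod effect in SW 0.41 (SE 0.12, FDR 0.101) and its interaction 0.56 (SE 0.19, FDR 0.281). In SPLL its change with SW was 0.08 (SE 0.14, FDR 0.988), in FW the photoperiods differed by -0.15 (SE 0.14, FDR 0.953), and the 4-group FDR was 0.194. DESeq2 called the first 3 of these contrasts at FDRs of 0.00833, 0.0121 and 0.0491, where it called 2.95%, 11.8% and 4.52% of transcripts.

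The SW change in SP-hold and the photoperiod effect in SW were smaller in size in limma on TPM, a fit that also leaves out TMM factors. Without TMM factors, edgeR gave -0.39 for the SW change in SP-hold and 0.33 for the photoperiod effect in SW. On log2(TPM + 1) with limma the SW change of ENSSSAT00000002879 in SP-hold was -0.15 and its photoperiod effect in SW 0.05. Its effective length was 811 to 821 bases in SP-hold SW against 841 to 868.3 bases in the other groups. The 1153 tested transcripts within 10% of its length had a median photoperiod effect in SW of 0.38, and a median SW change in SP-hold of -0.23. For the 1566 transcripts within 10% of the length of ENSSSAT00000120142 the median photoperiod effect in FW was -0.31, beside its own -0.63. For the 5633 around ENSSSAT00000119943 the median photoperiod effect in SW was -0.13, beside its own -2.42. The part of transcript length in the members' differences was not tested.

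The other transcript of calm2a, ENSSSAT00000002863, had 571 ± 64.0 TPM in FW (SD, n = 4) and 643 ± 114 in SW (n = 3) of SP-hold fish, and 563 ± 33.7 in FW (n = 2) and 668 ± 82.6 in SW (n = 4) of SPLL fish. It passed no edgeR contrast. The share of ENSSSAT00000002879 in the reads of calm2a averaged 51.7 ± 1.61% in FW (SD, n = 4) and 45.8 ± 4.09% in SW (n = 3) for SP-hold fish, and 44.8 ± 2.66% in FW (n = 2) and 46.0 ± 6.03% in SW (n = 4) for SPLL fish. The SPLL FW range, 42.9 to 46.7%, lay below that of SP-hold FW, 49.7 to 53.6%, and the other pairs of groups overlapped. In an exact permutation test the 4 groups gave p = 0.187, and no pairwise test gave a p under 0.0571. For photoperiod in FW (-6.87 points) the exact permutation p was 0.0667, the smallest that 2 against 4 libraries allow.

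**Figure D3:**
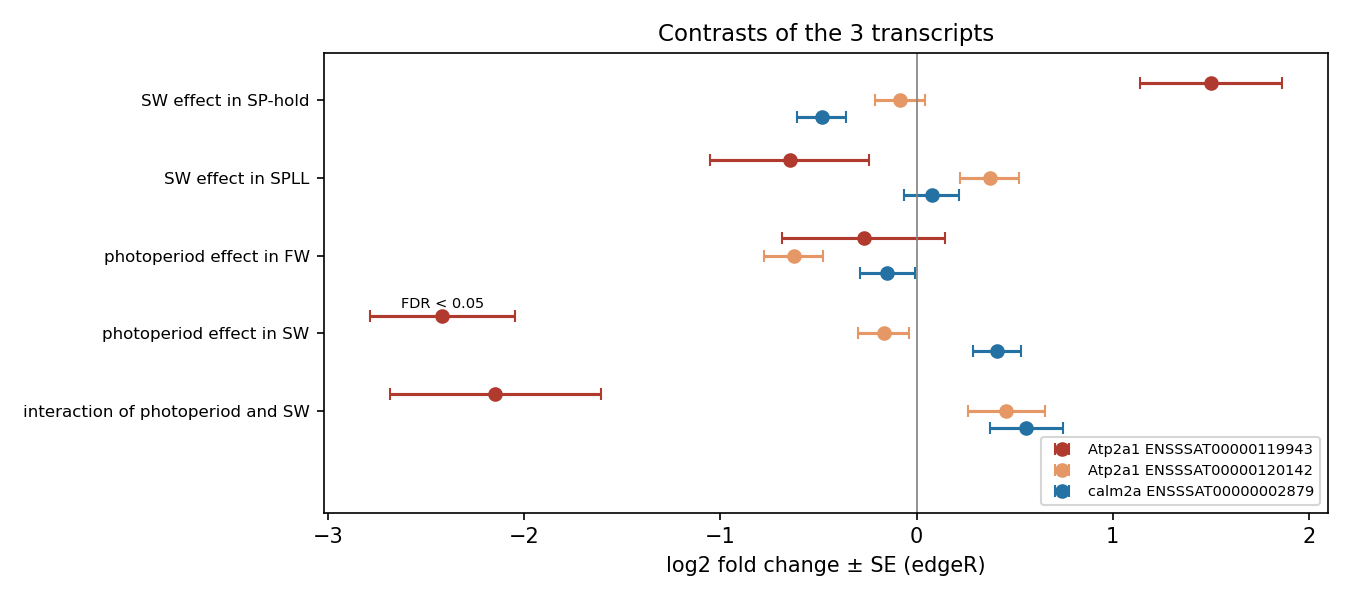
log2 fold changes with SE from edgeR for the 3 member transcripts in 5 contrasts, where a positive value means higher in SW, or higher in SPLL. The photoperiod effect in SW of ENSSSAT00000119943 (-2.42) is the only value past an FDR of 0.05.

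Of a longer list of skeletal muscle symbols, only acta1b and pygmb matched among the names read here, and the others could not be examined. Both of these named markers were called lower in SPLL SW than in SP-hold SW, as was the short Atp2a1 transcript. Of all tested transcripts, 1.63% were called lower in this contrast. acta1b, a skeletal muscle actin, lay between 124 and 171 TPM in SP-hold FW (median 135), and between 219 and 346 TPM in SP-hold SW (median 268). It lay at 157 and 180 TPM in SPLL FW and between 90.8 and 139 TPM in SPLL SW (median 114). As with the short Atp2a1 transcript, SP-hold SW did not overlap any other group, a pattern whose share among all transcripts was not counted. Its photoperiod effect in SW was -0.98 (SE 0.18, FDR 0.0275), its SW change 0.70 in SP-hold (FDR 0.226) and -0.74 in SPLL (FDR 0.187), and its interaction -1.44 (FDR 0.0805), all in edgeR. The call was lost without any 1 of SP-hold SW replicates 1 to 3 and SPLL SW replicates 1 and 4 (FDR up to 0.102), and held without SPLL SW replicate 3 (FDR 0.00598).

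pygmb, the muscle form of glycogen phosphorylase, had a median of 44.8 TPM in SP-hold SW (28.7 to 56.0) and of 22.04 TPM in SPLL SW (11.0 to 31.4). It had a median of 20.1 TPM in SP-hold FW (13.8 to 25.2), and 14.8 and 15.4 TPM in SPLL FW. Within SPLL fish, unlike the short Atp2a1 transcript, pygmb had a higher mean with SW. It was 21.6 ± 8.69 TPM in SW (SD, n = 4) and 15.1 ± 0.43 in FW (n = 2), with overlap. Its photoperiod effect in SW was -0.76 (SE 0.14, FDR 0.0283 in edgeR), and it missed the threshold when any 1 of SP-hold SW replicates 1 and 3 and SPLL SW replicates 1 and 4 was omitted (highest FDR 0.118), without TMM factors (0.142) and in limma on log2(TPM + 1) (0.173). The 2 markers summed to 138 to 192 TPM in SP-hold FW, 248 to 402 in SP-hold SW, 172 to 196 in SPLL FW and 110 to 171 in SPLL SW, and neither was at 0. pygmb is in the study's cluster 1, while ENSSSAT00000119943 is in cluster 2, and both were thus selected on these libraries. Over the 13 libraries the log2 CPM of ENSSSAT00000119943 had a Pearson r of 0.67 with acta1b and 0.79 with pygmb, and that of ENSSSAT00000120142 -0.16 and 0.46. The part of muscle tissue in the Atp2a1 result was not tested. The smooth muscle marker myl9a had a photoperiod effect in SW of -0.07 (FDR 0.926 in edgeR).

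Erythrocyte markers lay highest in SPLL SW. The 4 named hemoglobin transcripts together held 1.84 to 2.50% of TPM in SP-hold FW, 1.08 to 1.79% in SP-hold SW, 1.26 to 2.60% in SPLL FW and 2.00 to 5.39% in SPLL SW, and none was at 0. Of these, 0 of 4 passed the photoperiod effect in SW in edgeR (3 at an unadjusted p under 0.05, as for 18.5% of all tested transcripts, with a median of 1.69). Of 4 transcripts of glia, fabp7b was called in this contrast (0.94, FDR 0.0225), a call lost without any 1 of the SP-hold SW libraries (FDR up to 0.107), and the 1 endothelial marker, egfl7, had 0.39 (FDR 0.0352, lost without 8 libraries in turn, up to 0.120). Of all tested transcripts, 3.05% were called in this contrast. In limma on log2(TPM + 1) neither fabp7b nor egfl7 passed (FDR 0.245 and 0.968). Among the other glia transcripts, mean TPM in SPLL SW against SP-hold SW was higher for fabp7 (6436 against 3843). It was lower for vim (2913 against 3063) and slc1a2b (54.4 against 101). On counts in edgeR, the 4 glia transcripts had a median photoperiod effect in SW of 0.57. Of these, 3 had an unadjusted p under 0.05, as had 18.5% of all tested transcripts. egfl7, selected by the study on these libraries, was also called for SW in SPLL (0.73, FDR 0.0125) and SW averaged (0.45, FDR 0.0166). Of all tested transcripts, 0.269% and 0.222% were called there. In limma on log2(TPM + 1) both of these egfl7 calls were lost. The part of these cell types in the members' differences was not tested, and no neuron marker was among the names read here.

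**Figure D4:**
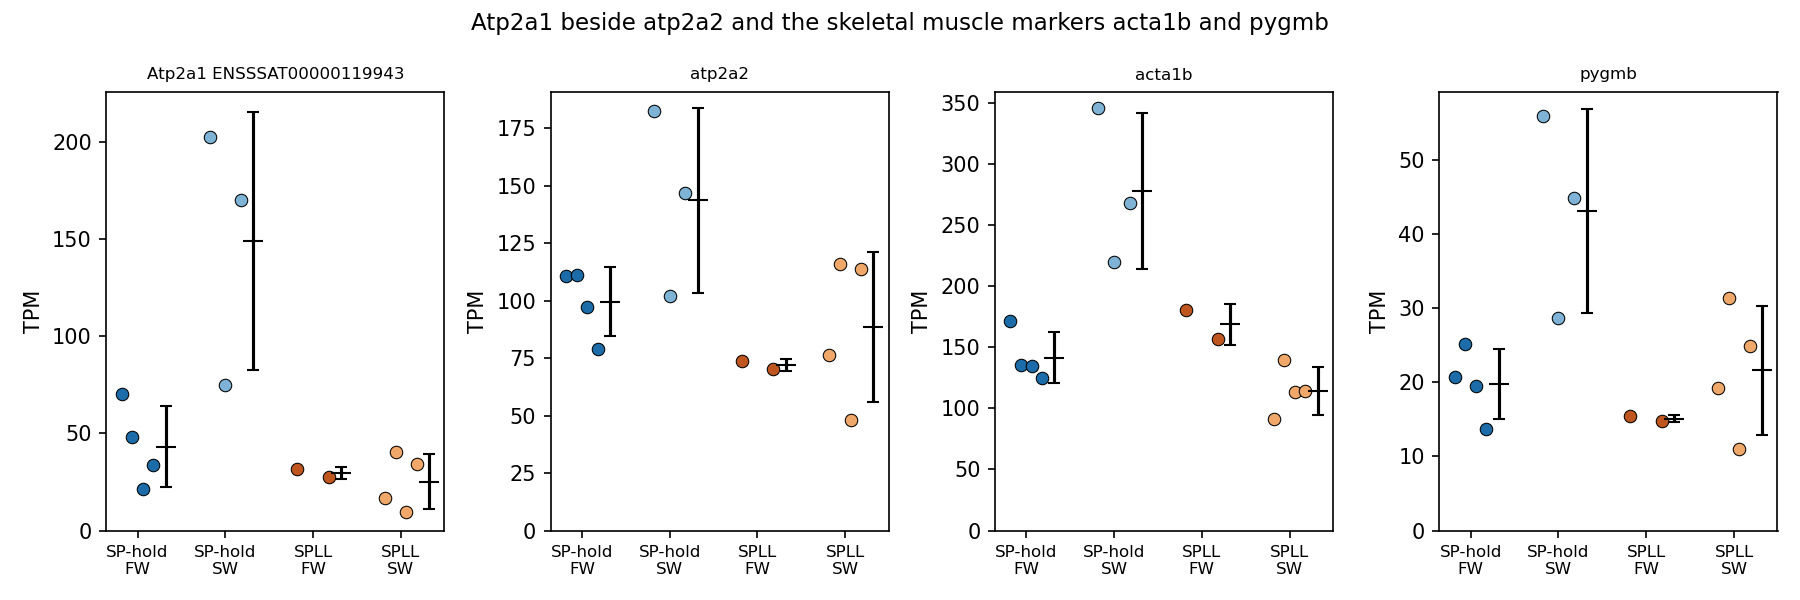
TPM of Atp2a1 ENSSSAT00000119943, of the second SERCA gene atp2a2 and of the skeletal muscle markers acta1b and pygmb in each library, with group mean and SD. In each panel the highest library is SP-hold SW replicate 1, at 202, 182, 346 and 56.0 TPM from left to right.

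The other named SERCA pump was also called lower in SPLL SW than in SP-hold SW. atp2a2 (ENSSSAT00000147495) stood at 111, 111, 97.2 and 79.0 TPM in SP-hold FW and at 182, 102 and 147 TPM in SP-hold SW. It stood at 73.7 and 70.1 TPM in SPLL FW and at 76.2, 116, 48.1 and 114 TPM in SPLL SW. SP-hold SW and SPLL SW overlapped on this scale. On counts, its photoperiod effect in SW was -0.54 (SE 0.10, FDR 0.0224 in edgeR), and the call was lost without SP-hold SW replicate 1 or 3 or SPLL SW replicate 1 (FDR up to 0.0982). In limma on log2(TPM + 1) the change was -0.74 with an FDR of 0.234. No plasma membrane pump (Atp2b) or secretory pathway pump (Atp2c) was among the names read here, and these were not analysed.

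Among calmodulin transcripts, 1 of 7 was called for the photoperiod effect in SW, where 3.05% of all tested transcripts were called. ENSSSAT00000221144, named calm1b by its zebrafish match, had 127 ± 25.2 TPM in FW (SD, n = 4) and 110 ± 19.4 in SW (n = 3) of SP-hold fish, and 113 ± 6.32 in FW (n = 2) and 141 ± 30.8 in SW (n = 4) of SPLL fish. These ranges overlapped. Its photoperiod effect in SW was 0.76 (SE 0.16, FDR 0.0387 in edgeR). The call was lost without 10 of the 13 libraries in turn (FDR up to 0.161), and held without replicate 1 or 3 of SP-hold FW or replicate 2 of SPLL SW. On log2(TPM + 1) the change was 0.34 (FDR 0.427 in limma). The second transcript of that gene, ENSSSAT00000012881, had -0.19 (FDR 0.384). The other calm1b and calm2a transcripts, ENSSSAT00000005282, ENSSSAT00000064898 and ENSSSAT00000160019, had 0.35, 0.47 and 0.32, with FDRs of 0.124 to 0.278.

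Of the proteins that calmodulin binds, 2 of 4 transcripts were called lower in SPLL SW than in SP-hold SW, as were 1.63% of all tested transcripts. sptan1, the alpha chain of nonerythroid spectrin (ENSSSAT00000115167), had 21.5 ± 4.50 TPM in SP-hold SW (SD, n = 3) and 9.77 ± 3.24 in SPLL SW (n = 4). Its log2 fold change was -1.05 (SE 0.14, FDR 0.0109 in edgeR). The libraries ranged from 16.3 to 24.2 TPM and from 6.27 to 13.8 TPM, without overlap, and the call held with each library left out in turn (FDR up to 0.0419) but not in limma on log2(TPM + 1) or log2(TPM + 0.1) (FDR 0.108 and 0.156). Camsap3, which binds the minus ends of microtubules (ENSSSAT00000164314), changed by -1.13 (SE 0.17, FDR 0.0133), which missed the threshold when SP-hold SW replicate 1 was omitted (FDR 0.0582), without TMM factors (0.0597) and in limma on log2(TPM + 1) (0.148). Both are in the study's cluster 2, as is ENSSSAT00000119943, and so were selected on these libraries. MARCS and marcksl1a, membrane proteins that calmodulin displaces, had -0.15 (FDR 0.680) and 0.09 (FDR 0.814).

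Of 11 transcripts of calcium buffers and other EF-hand proteins, 1 was called for the photoperiod effect in SW, beside 3.05% of all tested transcripts. At an unadjusted p under 0.05 in edgeR there were 8 of 11, as for 18.5% of all tested transcripts. The median of the 11 was 0.77, against -0.03 over all tested transcripts. Cetn4, a centrin of the ciliary base (ENSSSAT00000132214), was 1.41 higher in SPLL SW (SE 0.21, FDR 0.0140 in edgeR), which missed the threshold when SP-hold SW replicate 3 was omitted (FDR 0.0536) and in limma on log2(TPM + 1) (0.145). It had 6.42 ± 2.40 TPM in SP-hold SW (SD, n = 3) and 12.5 ± 3.60 in SPLL SW (n = 4), and the study had selected it in its cluster 5. The parvalbumin transcripts ENSSSAT00000091084 and ENSSSAT00000001133, the most abundant of the list, had 0.77 (FDR 0.135) and 1.52 (FDR 0.0553). Of 6 transcripts of the endoplasmic reticulum store, where SERCA delivers its calcium, 0 passed (3 at an unadjusted p under 0.05, as for 18.5% of all tested transcripts, median 0.35). Its most abundant members, TMBIM6 (ENSSSAT00000102750) and the calreticulin CALR3 (ENSSSAT00000131105), had -0.14 (FDR 0.584) and 0.40 (FDR 0.0644). VDAC2, the mitochondrial outer membrane channel, had 0.62 (FDR 0.0921).

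**Figure D5:**
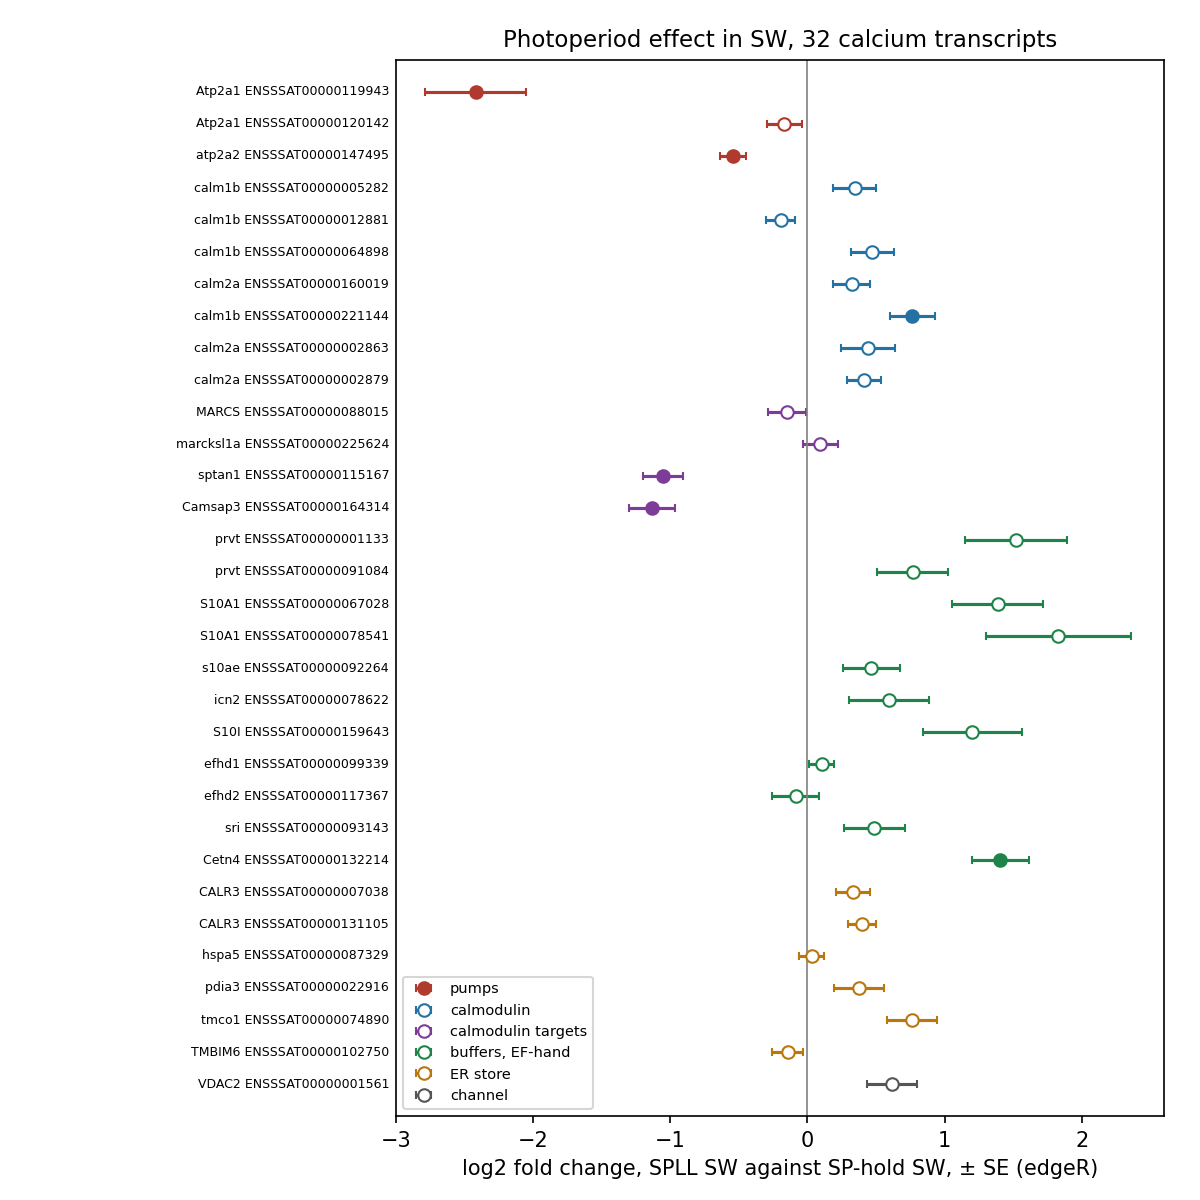
log2 fold change with SE (edgeR) of SPLL SW against SP-hold SW for 32 transcripts of calcium genes, coloured by role, filled where the FDR was under 0.05. The 4 filled points below 0 are Atp2a1 ENSSSAT00000119943, atp2a2, sptan1 and Camsap3, and the 2 above 0 are calm1b ENSSSAT00000221144 and Cetn4.

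In all, 5 of the 29 calcium transcripts that are not members were called in this contrast, 2 higher and 3 lower, where 1.43% of tested transcripts were called higher and 1.63% lower. The median of the 29 was 0.40, against -0.03 over all tested transcripts. For all tested transcripts within 10% of a member's length, the median was 0.38 around 1034 bases, -0.13 around 3890 and -0.21 around 9163. The part of transcript length in the median of the 29 was not tested. Of the 5, sptan1, Camsap3 and Cetn4 had been selected by the study on these libraries. Their calls, here and averaged over waters, are therefore not independent evidence, and neither is the comparison with all tested transcripts. With DESeq2, 13 of the 29 passed, 10 higher and 3 lower, where it called 11.8% of transcripts. Without TMM factors 3 were higher and 1 lower, where 0.772% of transcripts were called. Without the filter 1 was higher and 2 lower, where 197 of 109451 transcripts were called. In limma 2 were higher and 0 lower on log2(TPM + 1), and 0 passed on log2(TPM + 0.1), where 0.304% and 0.101% were called. Leaving out SP-hold SW replicate 1 or 3 gave 2 calls among the 29, where 140 and 253 of all tested transcripts were called. Leaving out SPLL SW replicate 1 gave 3 (284 of all tested transcripts), and leaving out SPLL SW replicate 2 gave 7 (1334 of all). Omitting SPLL SW replicate 3 left the number at 5 (961 of all). With every library in, 1417 of all tested transcripts were called. In the SW effect in SP-hold 0 of 29 passed in edgeR (9 at an unadjusted p under 0.05), in SPLL 0 (3), in FW 0 (5), and in the interaction 0 (9). Of all tested transcripts, 9.58, 10.5, 8.69 and 11.7% had an unadjusted p under 0.05 in these contrasts. For the photoperiod effect in SW, 19 of the 29 had an unadjusted p under 0.05 in edgeR, beside 18.5% of all tested transcripts. For the photoperiod effect averaged over waters it was also 19, beside 16.9%, and edgeR called 0.582% of all tested transcripts there. Averaged over waters, sptan1 (-0.64, FDR 0.0426), Camsap3 (-0.81, FDR 0.0320) and Cetn4 (0.95, FDR 0.0320) passed. None of these passed when any 1 of the following was omitted: replicates 1 and 2 of SP-hold FW, 1 and 3 of SP-hold SW, 2 of SPLL FW and 4 of SPLL SW. Those on sptan1 and Cetn4 were also lost without SP-hold SW replicate 2 or SPLL SW replicate 1, and that on Camsap3 without SPLL FW replicate 1 (FDR up to 0.156). In this contrast 0 of the 29 passed without TMM factors, without the filter, with filterByExpr or in either limma fit, and 12 passed in DESeq2, where it called 9.24% of transcripts.

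The named transcripts most like ENSSSAT00000119943 over the 13 libraries were Cic, a transcriptional repressor (Pearson r of log2 CPM 0.97), PRRC2B (0.97) and KCNH4, a voltage-gated potassium channel (0.97). All of these are in the study's cluster 2, as is ENSSSAT00000119943. That cluster was formed on these same libraries, so the shared cluster is not independent evidence. Most like ENSSSAT00000120142 were ogt.2, an O-GlcNAc transferase (0.90), the splicing factor srrm1 (0.88) and Mprip, which binds myosin phosphatase (0.86). Most like ENSSSAT00000002879 were pde6d, a carrier of prenylated proteins (0.88), seta, a histone chaperone (0.87), and m4a8a (0.86). Each was taken from 1271 named transcripts past the filter, as a description, and all points share the library's depth and normalization. Between members, r was 0.40 for both Atp2a1 transcripts, -0.73 for ENSSSAT00000119943 with ENSSSAT00000002879 and 0.02 for ENSSSAT00000120142 with it. With atp2a2, r was 0.91 for ENSSSAT00000119943 and 0.61 for ENSSSAT00000120142.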

How the data were processed

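Reads (single-end) were trimmed by the authors using Cutadapt and assigned to Ssal_v3.1 transcripts by Salmon 1.1.0, which corrected for GC content. The deposited files hold expected counts and TPM, and 3 libraries with few reads had been left out by the authors. Expected counts were rounded, while the study read the Salmon output through the catchSalmon function of edgeR. The 46395 transcripts whose median CPM reached 0.77 entered edgeR 4.0.16 (quasi-likelihood, TMM, 4 group means, no block) with an FDR of 0.01 over the 4 groups and 0.05 for contrasts, and the script was tested on simulated data. SE is the log2 fold change over the square root of F. Positions and names come from the study's tables (1274 named transcripts, 409 only by a zebrafish or mouse match), and RefSeq names from its Ssal_v3.1 genes. Annotation was read for 1434 abundant or selected transcripts only, while the study's own list of expressed transcripts runs further. Shares were compared by 2-sided exact permutation tests with Benjamini-Hochberg adjustment over 7 tests. Alternatives were DESeq2 1.42.0, no TMM, other filters, the replicate block, limma 3.58.1 on TPM, summed transcripts and each library left out. Named transcripts were the members, other transcripts of their genes, the 3 most like each member, all pumps and calmodulins, and other calcium transcripts called or among the 2 most abundant of their list. Members and lists were chosen with earlier results of these data known.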

Additional observations from a re-analysis of the deposited data

Results flagged for a closer look

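The share of the short Atp2a1 transcript in the reads of the gene differed with SW in opposite directions in the photoperiod groups. Every SP-hold SW library lay above every SP-hold FW library, with a mean difference of 12.9 percentage points, and every SPLL SW library lay below both SPLL FW libraries, with a difference of -5.07 points. Neither of these differences passed in exact permutation tests (adjusted p 0.0667 and 0.0933). In SPLL, 2 against 4 libraries allow no unadjusted p under 0.0667. The difference between the responses was not tested on the share. On the level of the transcript the interaction was tested in edgeR and did not pass (-2.15, FDR 0.171). In the groups of 4, a Dixon outlier test flagged no library in TPM, CPM or share of the members, but 4 values give this test little power. The other groups, SP-hold SW among them, were not tested in this way.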

How the results depend on the processing

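In the order 4-group test, SW in SP-hold, SW in SPLL, SW averaged, photoperiod in FW, photoperiod in SW, photoperiod averaged and interaction, edgeR called 29, 39, 125, 103, 42, 1417, 270 and 105 of all tested transcripts. In the same order, DESeq2 called 3443, 1369, 2301, 1835, 1507, 5478, 4289 and 2095. The calls numbered 14, 29, 48, 61, 24, 358, 53 and 60 without TMM factors, 10, 26, 31, 45, 15, 197, 45 and 44 without a filter on low counts, and 6, 29, 77, 61, 32, 494, 75 and 58 with filterByExpr. limma called 12, 20, 8, 10, 2, 141, 6 and 14 on log2(TPM + 1) and 30, 26, 38, 30, 12, 47, 17 and 25 on log2(TPM + 0.1). With each library left out in turn, the counts ranged over 3 to 65, 32 to 80, 84 to 501, 74 to 347, 34 to 277, 140 to 1334, 86 to 495 and 64 to 301. Where this left 1 SPLL FW library, it was assumed to vary like the other groups. The photoperiod count in SW was lowest without SP-hold SW replicate 1.

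For the short Atp2a1 transcript, the photoperiod effect in SW was -2.59 and -2.65 in limma with TPM + 1 and TPM + 0.1 (FDR 0.0508 and 0.0827), and ranged from -2.64 to -2.26 with 1 library left out (FDR 0.0108 to 0.0636). Averaged over waters it ranged from -1.46 to -1.21, and passed without SP-hold FW replicate 3 (FDR 0.0336). For both Atp2a1 transcripts summed, the values were -0.43 for photoperiod in SW, 0.13 for SW in SP-hold, 0.30 for SW in SPLL and 0.16 for the interaction. Summed calm2a had 0.0521 for photoperiod in FW.

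DESeq2 called results that edgeR did not. For the short Atp2a1 transcript these were SW in SP-hold (1.52), photoperiod averaged (-1.36), the interaction (-2.15) and the 4 groups (FDR 4.97e-08). For the long transcript they were SW in SPLL (0.39), photoperiod in FW (-0.63), photoperiod averaged (-0.41) and the 4 groups (FDR 0.000116). For calm2a they were SW in SP-hold (-0.46), photoperiod in SW (0.40) and the interaction (0.56).

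Signs turned only in uncalled results. SW in SP-hold for the long transcript was 0.0217 without TMM factors and 0.24 and 0.25 in limma. For calm2a, the averaged effects of SW and photoperiod in limma were 0.0719 and -0.17 with TPM + 1, and 0.0720 and -0.17 with TPM + 0.1, and SW in SPLL ranged from -0.0453 to 0.21 with 1 library left out. Its share in the reads ranged from -1.58 to 3.07 percentage points for photoperiod in SW (-0.0828 on TPM) and from -0.683 to 4.07 points for SW in SPLL. Without TMM factors the median of all transcripts moved from -0.02 to -0.19 for photoperiod in FW, and from 0.01 to 0.20 for SW in SPLL. The cause of these differences was not tested.

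With the replicate number as a block, 0, 4, 1, 4, 2, 146, 5 and 3 transcripts were called, and the photoperiod effect in SW of the short Atp2a1 transcript was -2.54 (FDR 0.0534). Of the 29 calcium transcripts that are not members, 0 passed with the block for photoperiod in SW or averaged. At an unadjusted p under 0.05, 6995 transcripts passed the 4-group test of that fit. Of 16 pairs of libraries with the same number, 0 had a correlation over 0.1, and 5 of 13 libraries correlated best with their own number, so the numbers were not taken to pair the libraries. Each group has 2 to 4 libraries, while each member had at least 742 reads in each library.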
